A study of Saccharomyces cerevisiae with 2 samples.

Results

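The 25S rRNA is the large RNA of the 60S ribosomal subunit, and its 5′ stretch from G1 to C1869, numbered from the 5′ end, holds about domains I to III. These domains are transcribed first. Domains I and II fold early onto the solvent side of the pre-60S particle and domain III joins later, while the catalytic subunit interface is built mainly from domains IV and V, further downstream. H22, a helix of domain I, pairs with H88 of domain V in a kissing loop on which the GAAA tetraloop of H68 docks, and H38 of domain II also ends in a GAAA loop. Puf6 is a nucleolar assembly factor of the 60S subunit with Pumilio repeats, a fold that binds RNA in other members of the PUF family.

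Contacts of Puf6 on RNA were mapped by CRAC in growing Saccharomyces cerevisiae cells whose Puf6 carried a C-terminal His6-TEV-ProtA (HTP) tag at its own locus. The cells were irradiated with ultraviolet light, Puf6 was purified with the RNA linked to it, and the attached RNA fragments were converted to cDNA and sequenced. The study describes 2 libraries of this 1 condition, but the tables hold 1 library and do not say which, so no spread between replicates can be given and all intervals cover counting error only. No library without tagged Puf6 was used here, so a level of hits is not a level above background. The members described are the nucleotides G1 to C1869, which are 55.0% of the nucleotides of the 25S table (G1 to U3396) and were chosen by position alone. They lie at chrXII:453313-455181 on the minus strand of the R64 assembly, in the gene RDN25-1. TAR1, a protein-coding gene on the opposite strand, overlaps nucleotides 112 to 486, and cDNAs were counted in the sense direction of the rRNA. Each nucleotide has 2 values. Hits are the cDNAs that cover it, and deletions are the cDNAs that lack it, which is the usual trace of a cross-linked base. The library holds 241334 mapped cDNAs. Counting stopped at 5000 cDNAs per RNA, and the 25S rRNA reached this cap. The 5000 cDNAs are thus not its share of the library, and all depths below are depths within this capped count.

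The sequences below are the stretches around 4 of the summits of hits and around U1840, the second most deleted nucleotide. The summit at U1824, with 37 hits as at G714, stood on a broad plateau, and its stretch is not printed in full. The sequences are read from the 25S table, match the reference genome and are written 5′ to 3′. Capitals mark every nucleotide with at least 1 deletion. The first 4 run over the nucleotides with at least 50% of the summit's hits.
Summit at G1536, nucleotides 1509 to 1577, chrXII:453605-453673: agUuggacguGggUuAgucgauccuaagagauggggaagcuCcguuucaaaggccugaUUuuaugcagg
Summit at A1202, nucleotides 1176 to 1225, chrXII:453957-454006: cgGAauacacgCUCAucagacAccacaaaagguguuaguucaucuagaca
Summit at G714, nucleotides 699 to 764, chrXII:454418-454483: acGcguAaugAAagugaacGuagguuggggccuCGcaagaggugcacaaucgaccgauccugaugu
Summit at A1009, nucleotides 994 to 1061, chrXII:454121-454188: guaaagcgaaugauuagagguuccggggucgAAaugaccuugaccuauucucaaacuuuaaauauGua
Around U1840, nucleotides 1825 to 1855, chrXII:453327-453357: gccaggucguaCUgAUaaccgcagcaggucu

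The 5′ stretch, G1 to C1869, was thinly covered. With 55.0% of the nucleotides it held 8.97% of all hits on the 25S. Its share of all deletions was 5.01% (Clopper-Pearson 95% interval 4.09 to 6.06%). Both shares depend on the strong site downstream, and with C2163 to A2262 left out of the totals they were 21.7% of the hits and 17.5% of the deletions. Each nucleotide was covered by 15.0 cDNAs on average, against 488 in the middle stretch, C1870 to G2355, which holds H66, H68 and H69, and 45.8 in the 3′ stretch, A2356 to U3396. Medians lay closer together, at 12 hits for the 5′ stretch, 79 for the middle stretch and 13 for the 3′ stretch. The typical nucleotide of the 5′ stretch was thus covered about as often as that of the 3′ stretch, whose mean rests on fewer, higher sites. One cDNA covers many nucleotides, so hits carry no interval and no test was made on them. At the mean length of 62.6 nucleotides per cDNA, the 28079 hits are worth 449 of the 5000 cDNAs.

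**Figure D1:**
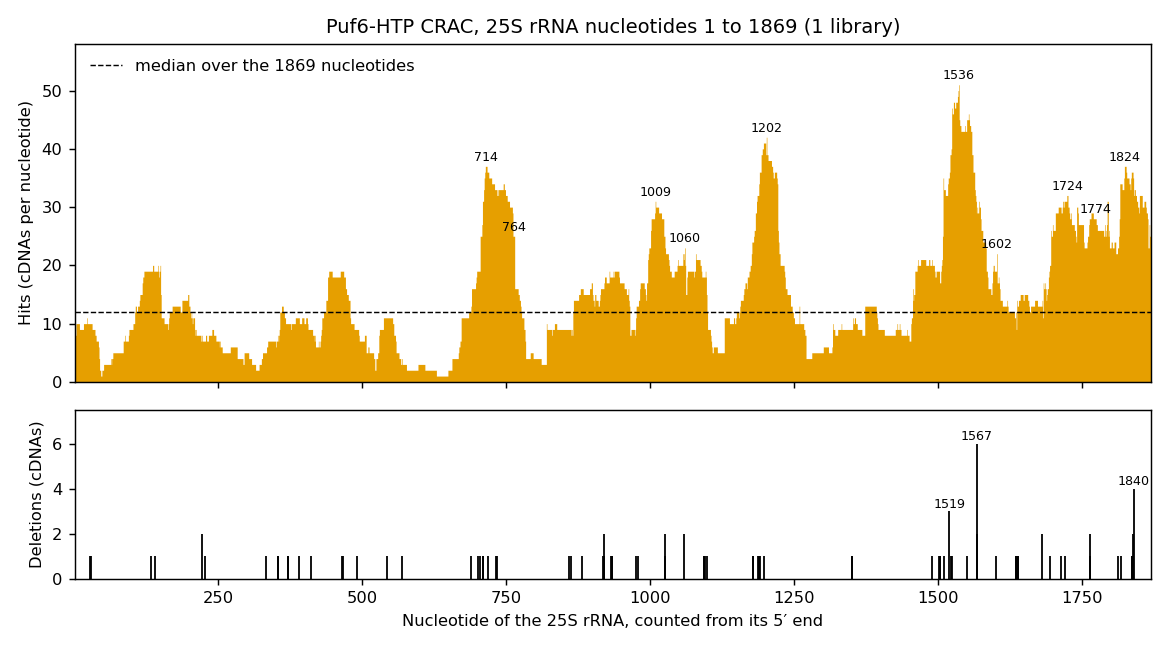
Hits (upper panel) and deletions (lower panel) at each nucleotide from G1 to C1869 of the 25S rRNA in 1 library. The dashed line is the median of 12 hits. Numbers in the upper panel mark the 10 nucleotides with most hits at least 50 nucleotides apart. Numbers in the lower panel mark the nucleotides with 3 or more deletions: G1519, U1567 and U1840.

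Coverage was uneven and rose towards domain IV, but not steadily. Every nucleotide had at least 1 hit, 22 had only 1, and the highest, G1536, had 51. The mean was 8.45 hits over nucleotides 1 to 700, 15.7 over the next 800 and 26.0 over the last 369. In windows of 100 nucleotides the mean ran from 5.62 hits at 601 to 700 up to 33.0 in the window that ends at 1600. It fell back in places, from 23.3 at 701 to 800 to 10.1 at 801 to 900. It was 9.35 at 1301 to 1400 and 14.7 at 1601 to 1700. The second highest window was the last one, of 69 nucleotides from 1801 to C1869, with 30.2 hits, and the third was 1701 to 1800, with 27.4. This rise did not run on evenly into the strong site downstream, since the hits came down to 11 at nucleotide 2076 before they climbed to the strong site. At the limit itself nothing changed: G1868 and C1869 had 25 hits each, and C1870 and U1871 had 26 and 27.

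**Figure D2:**
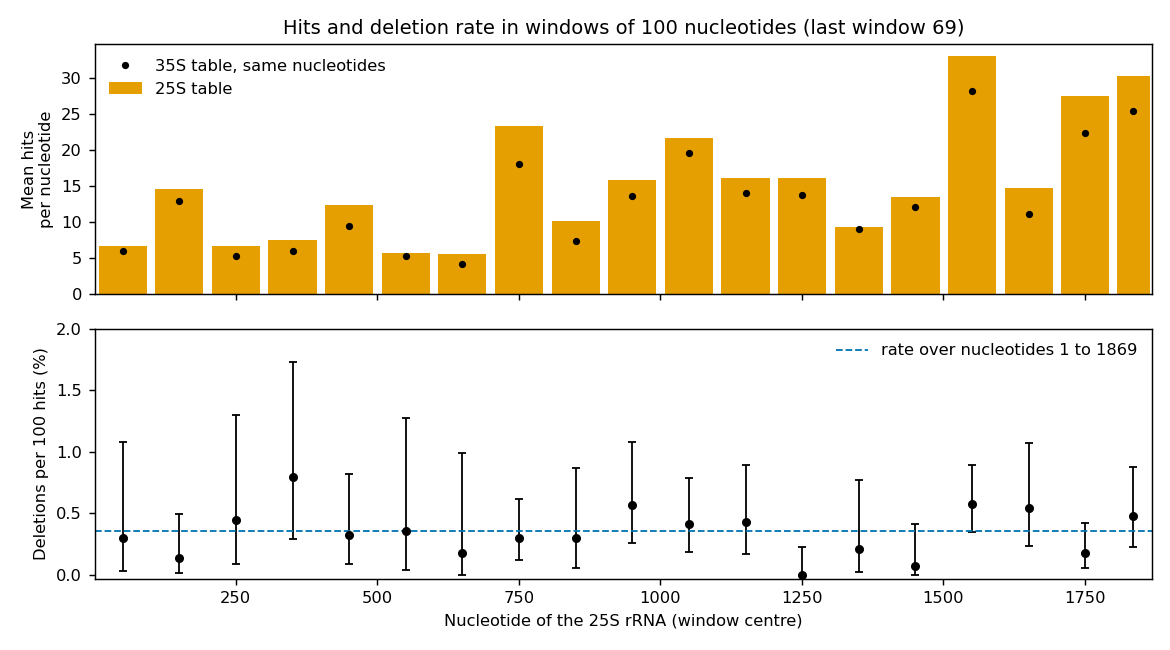
Mean hits (upper panel, bars for the 25S table, points for the same nucleotides in the 35S table) and deletions per 100 hits (lower panel, points with Clopper-Pearson 95% intervals) in windows of 100 nucleotides. Hits are highest in the window that ends at 1600, with 33.0, and the intervals of all windows but 1201 to 1300 include the rate over G1 to C1869, 0.356%.

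The summits rose a few times above the median of 12 hits. G1536 reached 4.25 times the median. Its stretch of 69 nucleotides held 15 deletions, more than the other 3 summits whose sequences are shown. A1202 had 42 hits and G714 had 37, with 7 deletions each over the stretches around them. A1009 followed with 31 hits and 5 deletions. The remaining 6 summits were U1824, with 37 hits, U1724, with 32, C1774, with 28, U764, with 25, U1060, with 23, and A1602, with 22. U1824, U1724 and C1774 stood on 1 broad plateau, where hits stayed at or above 50% of the height of U1824 from nucleotide 1693 to the end at C1869. U764 and U1060 lay inside the stretches printed for G714 and A1009, and A1602 was a separate small rise beyond that of G1536. None of the 10 picked nucleotides had a deletion, but only 4.39% of all nucleotides from G1 to C1869 had any, so little can be read from this. Well covered neighbours, named here because they had a deletion, were A1524, with 47 hits, C1550, with 45, and A1197, with 41. Each had 1 deletion.

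At the low end, 322 nucleotides, or 17.2%, had under 6 hits, 50% of the median. The longest such stretch was 559 to 667, with a mean of 2.45 hits over 109 nucleotides and 1 deletion. The next were 283 to 333, 43 to 84, 784 to 819 and 1271 to 1300, with means from 3.74 to 4.67 hits. Together these 4 held 1 deletion. At such depth a site deleted in a small share of cDNAs was not detectable.

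Deletions were scattered. Between G1 and C1869, 82 nucleotides had at least 1 deletion, or 4.39%, against 9.01% over the whole 25S. This share depends on depth, and it was 75% in C2163 to A2262 and 42% in the last 100 nucleotides. Without these it was 15.8% in the middle stretch and 4.89% in the 3′ stretch. Of the 82 between G1 and C1869, 71 had a single deletion, 8 had 2, and G1519, U1840 and U1567 had 3, 4 and 6. The 100 deletions fell into 54 unbroken runs of deleted nucleotides, 19 of them of 2 or more neighbours and the longest of 5, from 1635 to 1639. A cDNA that lost several neighbouring bases counts at each of them, so the 100 deletions stand for at least 70 separate events. The longest stretch without a deletion was 1198 to 1349. It was picked for having none, so its rate is not given. It contains the summit at A1202.

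Deletions per hit were fewer than in the rest of the 25S, but the difference rested on a few stretches there. In the 5′ stretch 100 of 28079 hits were deletions, a rate of 0.356% (0.290 to 0.433%, Clopper-Pearson 95% interval). In the middle stretch the rate was 1591 in 237183, or 0.671% (0.638 to 0.704%), which gives an odds ratio of 0.529 (95% interval 0.428 to 0.648, p = 1.70e-11 in a two-sided Fisher's exact test on deleted and other hits). Without C2163 to A2262, the strong site around U2217, the remaining nucleotides of the middle stretch had 0.311%, and the odds ratio became 1.15 (0.885 to 1.48, p = 0.302 in the same exact test). In the 3′ stretch the rate was 305 in 47632, or 0.640% (0.571 to 0.716%), an odds ratio of 0.555 (0.438 to 0.698, p = 1.22e-07 in the same exact test). Of these 305 deletions 258 lay in the last 100 nucleotides, and without them the rate downstream was 0.244% and the direction turned, with an odds ratio of 1.46 (1.02 to 2.12, p = 0.0352 in the same exact test). The study treats the signal of H99, a helix near this 3′ end whose limits were not at hand, as non-specific. Neighbouring hits share cDNAs, so these p-values overstate the precision. With neighbouring deletions counted as 1 event, the odds ratio against the 3′ stretch was 0.836 (0.618 to 1.12, p = 0.227 in the same exact test).

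**Figure D3:**
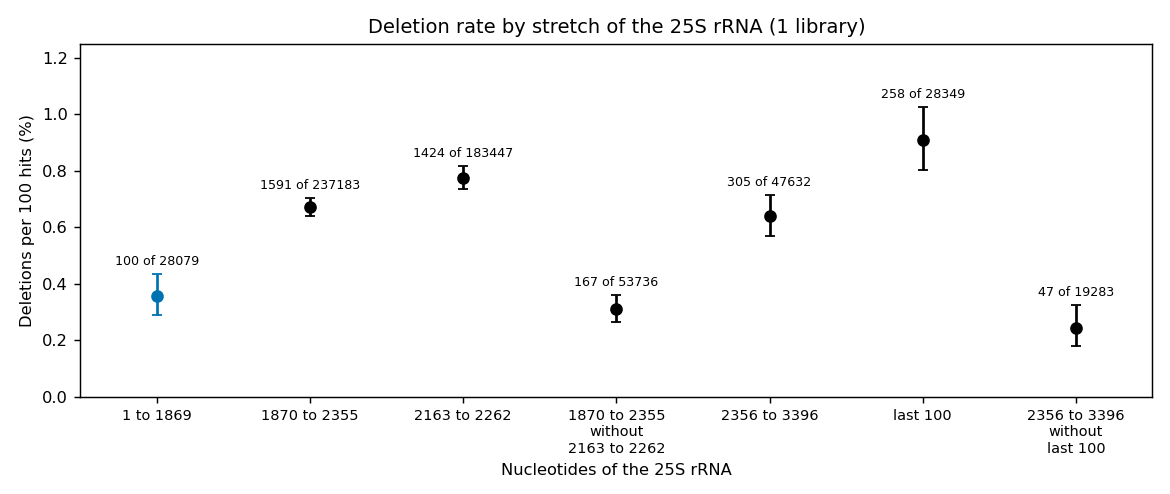
Deletions per 100 hits in stretches of the 25S rRNA, with G1 to C1869 in blue at the left. Bars are Clopper-Pearson 95% intervals, the numbers give deletions and hits, and the rate of 0.356% over G1 to C1869 lies below 0.671% in the middle stretch and 0.640% in the 3′ stretch, and above the 0.244% of the 3′ stretch without its last 100 nucleotides.

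At single nucleotides, deletions were tested against all other nucleotides of the 25S (one-sided Fisher's exact test, Benjamini-Hochberg adjustment over the whole 25S). In this test 20 nucleotides of the whole 25S, or 0.589%, had an adjusted p under 0.05, and 2 in the 5′ stretch, U1567 and U1840, were among them. That is 0.107% of its nucleotides, below the share over the whole 25S. Of the 20, 11 lay in C2163 to A2262 and 4 in the last 100 nucleotides. The 3′ stretch had no others. A further 14 of its nucleotides had an unadjusted p under 0.05, which makes 16 with the 2 called. The middle stretch had 26 such nucleotides and the 3′ stretch had 12, in each case a larger share of its nucleotides. Of the 12, however, 9 lay in the last 100 nucleotides, and without these the share in the 3′ stretch was below that in the 5′ stretch. Depth differed between the stretches, and such shares depend on it. Some of the 14 had only 1 deletion at low depth, such as A569 in 4 hits, G333 in 5 and G353 in 8. At such depth 1 deletion was enough to pass without adjustment.

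U1567 had the most deletions and, among nucleotides with at least 10 hits, the highest rate. It lost 6 of 29 hits, or 20.7% (7.99 to 39.7%, Clopper-Pearson 95% interval), against 0.636% at all other nucleotides of the 25S (adjusted p = 7.32e-06 in the one-sided Fisher's exact test). It lies at position 453615 of chromosome XII, 31 nucleotides after the summit at G1536 in the sequence printed first. U1567 opens a run of 4 U and U1568 had 2 more deletions in 30 hits. Loss of any base of a run leaves the same sequence, so the 8 deletions belong to the run and not to 1 of its bases.

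U1840, 16 nucleotides after the summit at U1824, lost 4 of 32 hits, or 12.5% (3.51 to 29.0%, adjusted p = 0.0117 in the same exact test). It lies at position 453342, is a single U between A1839 and A1841, and so its deletions are not open to a shift along a run. A1839 next to it had 2 deletions in 35 hits, and C1836 and U1837 had 1 each. A stretch of 5 nucleotides, C1836 to U1840, thus held 8 of the 100 deletions. With Benjamini-Yekutieli adjustment the call at U1840 was lost and that at U1567 was kept. Both called nucleotides are U, and both lie in the last 369 nucleotides, where coverage was highest.

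The other nucleotides named by their deletions had 3 or fewer and did not pass the test. G1519 and A221 did pass where C2163 to A2262 and the last 100 nucleotides were left out of the nucleotides compared with. G1519 had 3 deletions in 35 hits, or 8.57% (1.80 to 23.1%, adjusted p = 0.199 in the same exact test). It opens a run of 3 G, 17 nucleotides before the summit at G1536. A221, with 2 deletions in 8 hits, had an adjusted p of 0.180 in the same exact test. U1681 and U919 had 2 deletions each, in 14 and 16 hits. G1059, A1025 and U1763 had 2 deletions each in 22, 25 and 28 hits. Among nucleotides with at least 10 hits, C27, with 1 deletion in 10 hits, completed the 5 highest rates, as the first by position of 4 nucleotides with that value. With so few cDNAs the intervals are wide, and at U1681 the rate of 14.3% had an interval of 1.78 to 42.8%.

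U was the most deleted base. Of the 100 deletions 40 fell on U, with 24.6% of the hits. The rate was 0.580% at U (Clopper-Pearson 95% interval 0.415 to 0.789%), against 0.283% at the other bases (0.216 to 0.364%), an odds ratio of 2.05 (1.34 to 3.12, p = 0.000654 in the two-sided Fisher's exact test). Neighbouring hits share cDNAs here too, so the p-values and intervals for U overstate the precision. A had 0.362%, C 0.249% and G 0.234%. Coverage did not differ much by base, with means from 14.8 to 15.6 hits. Without U1567 the odds ratio was 1.75 (p = 0.0113 in the same exact test), and without U1567, U1568 and U1840 it was 1.45 (0.893 to 2.31, p = 0.106 in the same exact test), so these 3 nucleotides, chosen for their deletions, carried part of the difference.

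Deletions in runs of the same base sat mostly on the first base, and which base of a run was lost cannot be told from the sequence. Of the 100 deletions 54 lay in runs of 2 or more identical bases, and 42 of these 54 were placed on the first, 5′ base of the run. In 3 of the 34 runs with a deletion the first base had none. By length of run the rate was 0.330% for single bases, 0.297% in runs of 2, 0.582% in runs of 3 and 0.458% in runs of 4 or more. The Clopper-Pearson 95% intervals of these rates overlap, with 0.345 to 0.918% for runs of 3 and 0.242 to 0.440% for single bases.

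Short elements of interest for Puf6 were looked for in the sequence of these nucleotides, on the RNA strand only. GAAA, the sequence of the H68 tetraloop, occurs 19 times among them, of 28 times in the 25S. No GAAA was assigned to a helix, since the limits of H38 and H22 were not at hand. The best covered was at 708 to 711, beside the summit at G714, with up to 33 hits. It had 2 deletions, at A709 and A710. The GAAA at 1024 to 1027, beside the summit at A1009, had up to 25 hits and 3 deletions, 2 of them at A1025. The GAAA at 371 to 374 and at 1488 to 1491 had 1 deletion each, and the other 15 had none. Over all 19 sites 7 of 941 hits were deletions, or 0.744% (0.300 to 1.53%, Clopper-Pearson 95% interval), an interval that includes the 0.356% of G1 to C1869. Their mean was 12.4 hits, below the overall mean of 15.0.

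UUGU, named as the Puf6 element of the ASH1 mRNA, occurs 9 times among these nucleotides, with between 6 and 26 hits at its best covered base. The UUGU at 410 to 413 had 1 deletion and that at 464 to 467 had 2, at U465 and G466. UGUA, the core of the element bound by other PUF proteins, occurs 6 times, and 2 of its sites overlap a UUGU. The UGUA at 1058 to 1061 had 2 deletions, both at G1059, and the UGUA at 687 to 690 had 1. The rates were 0.554% at UUGU (0.114 to 1.61%) and 0.968% at UGUA (0.200 to 2.80%), each from 3 deletions. No site of the 3 elements had over 36 hits, 3 times the median, and a match in the sequence says nothing about binding.

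**Figure D4:**
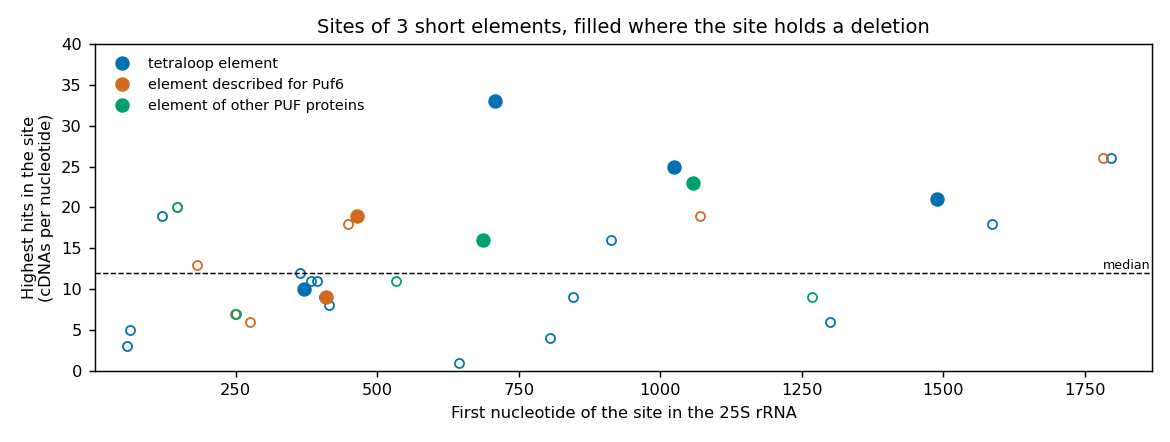
Highest hits at each site of GAAA (blue), UUGU (orange) and UGUA (green) against the position of the site, filled where at least 1 deletion lies in the site. The highest is the GAAA at 708, with 33 hits, and the dashed line is the median of 12 hits from G1 to C1869.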

How the data were processed

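The authors aligned paired reads to R64-1-1.75 with NovoAlign and counted with pyPileup of pyCRAC, per the methods and file headers. Hits are deposited as an unscaled coverage signal, the number of cDNAs over a nucleotide, and the deposited deletion counts are cDNAs lacking it. Counting stopped at 5000 cDNAs per RNA. Headers name deletions as the only mutations recorded and an option, blocks, taken here to count cDNAs with the same ends once, which was not tested. The library holds 1316148 cDNAs, of which 241334 were mapped. The placing of reads among rDNA copies was not given in the sources used here. The second annotated 25S copy differs at 0 of the 1869 nucleotides.

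Rates are deletions divided by hits, with exact 95% Clopper-Pearson intervals. Fisher's exact tests compared deleted with other hits, and per-nucleotide tests were adjusted over the 3396 nucleotides. Named are the 10 nucleotides with most deletions, the 5 highest rates with at least 10 hits and nucleotides called by the test. The 10 nucleotides with most hits at least 50 nucleotides apart are named as summits. Further named are the 5 longest stretches under 50% of the median, extreme windows and all sites of 3 elements. The members are set by position, but this division and the lists were chosen with earlier results of these data known, so U1567 is no independent find. The stretch 1836 to 1840 was chosen after its values were seen. Alternatives were cDNA equivalents (hits divided by the mean cDNA length), a minimum of 10 hits, the 35S table and left-out nucleotides. The 5S table was not used here. Tests ran in scipy 1.17.1 with numpy 2.4.6, tables in pandas 2.3.3 and plots in matplotlib 3.10.9, under Python 3.11.15.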

Additional observations from a re-analysis of the deposited data

How the results depend on the processing

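No paired analysis was possible because the tables hold 1 library of 1 condition, and for the same reason no replicate could be left out. The odds ratio for deletions at G1 to C1869 against C1870 to G2355 kept its direction and stayed past the threshold in most settings. These were at least 10 hits, the 35S table, without U1567, without U2217 and neighbouring deletions as 1 event, with values from 0.498 to 0.757. With cDNA equivalents it was 0.396. That setting divides all hits by 1 constant and keeps the deletions. The ratio of the rates cannot change there, so it is no check on shared cDNAs. The odds ratio turned to 1.15 without C2163 to A2262. Against A2356 to U3396 it turned to 1.46 without the last 100 nucleotides and was 0.836, no longer past the threshold, with neighbouring deletions as 1 event. At U it fell to 1.45 without U1567, U1568 and U1840, was 2.64 with cDNA equivalents and lay between 1.75 and 2.20 otherwise. Counting events, leaving out C2163 to A2262 from that comparison and leaving out the 3 U were chosen after seeing the data. The number of called nucleotides, 2, became 4 with a reference without C2163 to A2262 and the last 100 nucleotides, which added A221 and G1519, and 1, U1567, with Benjamini-Yekutieli adjustment. The share of 25S hits was 30.2% by median hits times length, 21.7% without C2163 to A2262 and 9.87% without the last 100 nucleotides. The share of deletions was 6.64% without U2217 and 17.5% without C2163 to A2262. The shares without left-out nucleotides move because the totals shrink. Of the 10 nucleotides picked as summits 6 were kept with at least 100 nucleotides between them and 8 in the 35S table. Depth limits single sites: 62.9% of the nucleotides had at least 10 hits.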

Other observations

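The 35S table holds the nucleotides G1 to C1869 with 23532 hits and 91 deletions, against 28079 hits and 100 deletions in the 25S table. At all of these nucleotides the 25S table had at least as many hits and at least as many deletions as the 35S table, with a median ratio of hits of 1.20 and a range of 1 to 2. Counting stopped at 5000 cDNAs per RNA, and the 35S table also covers nucleotides outside the 25S. Its 25S part holds 4220 cDNA equivalents, against 5000 in the 25S table. The part of the cap in the difference was not tested. Both tables come from the same library, so values in the 35S table are no replicate of those in the 25S table. U1567 had 5 deletions in 24 hits there, and U1840 had 4 in 29.

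Hits changed in steps where several cDNAs began or ended at 1 place. The largest rise was at nucleotide 1509, where hits were 35 against 25 at the nucleotide before it, at the start of the stretch around G1536. The largest fall was at nucleotide 765, with 16 hits against 25 at U764. Across the 5′ end of the 25S rRNA, where ITS2 is cut off during maturation, the 35S table had 6 hits on the first nucleotide of the 25S and 6 on the last of ITS2. With so few cDNAs a small step could not be seen, and whether the same cDNAs cross this site cannot be told from the counts.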
